A study of Mus musculus with 3 samples.

Results

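The 9 genes described here are regulators of the epithelial to mesenchymal transition (EMT), chosen by symbol from the 18245 genes of the deposited table. Of these, 7 encode transcription factors that favour the mesenchymal state (Snai1, Snai2, Zeb1, Zeb2, Twist1, Twist2 and Prrx1), and 2 encode regulators of the epithelial state (Esrp1 and Grhl2). All 9 were found in the table. Messenger RNA was sequenced from 3 kinds of cultured cell from hearts of adult C57BL/6 mice, each with 3 libraries. CDC are cardiosphere-derived cells, which grow out of tissue explants, here of peeled ventricle epicardium, and pass through floating spheres. CDC-EpiC cells came from CDC cultures given 10 µM SB-431542, which blocks the kinase of TGF-beta type I receptors, and in which epithelial clones formed within 2 weeks and were lifted out with cloning cylinders. The series design names 1 such clone, so the drug, the picking and the clone cannot be told apart. The pEpiC group consists of primary epicardial cells, isolated by digestion of the dissected heart and used after passage in culture. Neither CDC nor pEpiC was given the inhibitor, and no group carries an engineered allele. The labels give 1 entry per kind of cell and speak of separate samples, so the 3 libraries of a kind are treated as replicates. The study's methods give a lower number of biological replicates per condition than there are libraries, whether the libraries came from separate animals or cultures is not given, and the p-values then measure only the spread between libraries, which may be technical.

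The epicardium is the outer epithelial layer of the heart, and during development some of its cells undergo EMT and become fibroblasts and mural cells. Snail factors (Snai1, Snai2) and Zeb factors (Zeb1, Zeb2) are zinc-finger repressors that bind E-box sequences in the promoters of junction genes such as Cdh1. Twist1 and Twist2 are basic helix-loop-helix (bHLH) factors that act as dimers with E proteins, and Id proteins compete for those partners. Prrx1 is a homeobox factor of mesenchymal cells. Esrp1 directs epithelial splicing, and Grhl2 is a grainyhead-like activator of epithelial junction genes. TGF-beta, whose receptor kinase SB-431542 blocks, is a classical inducer of several of these factors.

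Total expected counts were 22008833 to 22756045 per library, so depth was nearly equal. Epicardial and mesothelial markers (13 genes) summed to 604 to 669 TPM (transcript abundance scaled to gene length and library total) in CDC, 4977 to 5591 in CDC-EpiC and 636 to 665 in pEpiC, and none of the 13 was at 0 throughout a group. The sums hid differences between markers. In pEpiC vs CDC 6 of the 13 were higher and 7 lower (edgeR, adjusted p below 0.05). The shares of all genes tested were 39.8% and 38.5%. Tcf21, the most abundant in pEpiC, had 261 to 274 counts in CDC, 578 to 700 in CDC-EpiC and 2182 to 2516 in pEpiC. Upk3b, the most abundant in CDC and CDC-EpiC, had 4767 to 5192, 55583 to 63219 and 1441 to 1796 in the same order. Macrophage markers (14 genes) summed to 88.95 to 94.65 TPM in CDC, 33.7 to 37.05 in CDC-EpiC and 681 to 1905 in pEpiC. In pEpiC library 1 every macrophage marker was 2.41 to 4.12 times its mean in the other two pEpiC libraries, whereas the 7 factors lay at 0.941 to 1.09 times theirs, with Zeb2 the highest. In bulk RNA, fewer cells of a type and less RNA per cell cannot be told apart.

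The 7 factors were present in every library, and their TPM, which compares genes per length, is given library by library. Snai1 was at 98.44, 89.36 and 89.84 TPM in CDC, at 22.55, 24.84 and 24.19 TPM in CDC-EpiC and at 49.67, 50.58 and 49.82 TPM in pEpiC. The groups did not overlap, and CDC was highest. Its paralog Snai2 was at 13.11, 12.24 and 14.90 TPM in CDC, at 5.73, 4.41 and 5.38 TPM in CDC-EpiC and at 53.00, 59.66 and 50.28 TPM in pEpiC. For Snai2 the highest group was therefore pEpiC, and both Snail factors were lowest in the clone.

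Zeb1 was at 17.31, 15.68 and 21.49 TPM in CDC, at 11.88, 11.25 and 11.52 TPM in CDC-EpiC and at 43.89, 47.96 and 45.35 TPM in pEpiC. Zeb2, which is also transcribed in macrophages, was at 19.52, 17.63 and 24.32 TPM in CDC, at 14.79, 14.63 and 17.01 TPM in CDC-EpiC and at 79.87, 73.60 and 72.78 TPM in pEpiC. Both Zeb factors kept the order pEpiC, CDC, CDC-EpiC with no overlap between groups. The part of macrophage RNA in the pEpiC level of Zeb2 was not tested. Without pEpiC library 1 the log2 difference of Zeb2 between pEpiC and CDC was 1.39, against 1.45 with it.

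Twist1 was the steadiest of the 7, at 26.56, 29.92 and 32.56 TPM in CDC, at 31.26, 35.24 and 37.79 TPM in CDC-EpiC and at 45.69, 51.02 and 41.98 TPM in pEpiC. The CDC and CDC-EpiC libraries overlapped. Twist2 was at 6.18, 6.95 and 6.19 TPM in CDC, at 7.19, 6.41 and 8.43 TPM in CDC-EpiC and at 67.67, 69.27 and 66.23 TPM in pEpiC. Its pEpiC libraries stood far above the rest, and those of CDC and the clone overlapped. Prrx1 was at 178.45, 183.29 and 214.34 TPM in CDC, at 46.00, 42.77 and 48.16 TPM in CDC-EpiC and at 127.87, 137.38 and 131.25 TPM in pEpiC, with no overlap. It was the most abundant of the 7 in every library.

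**Figure D1:**
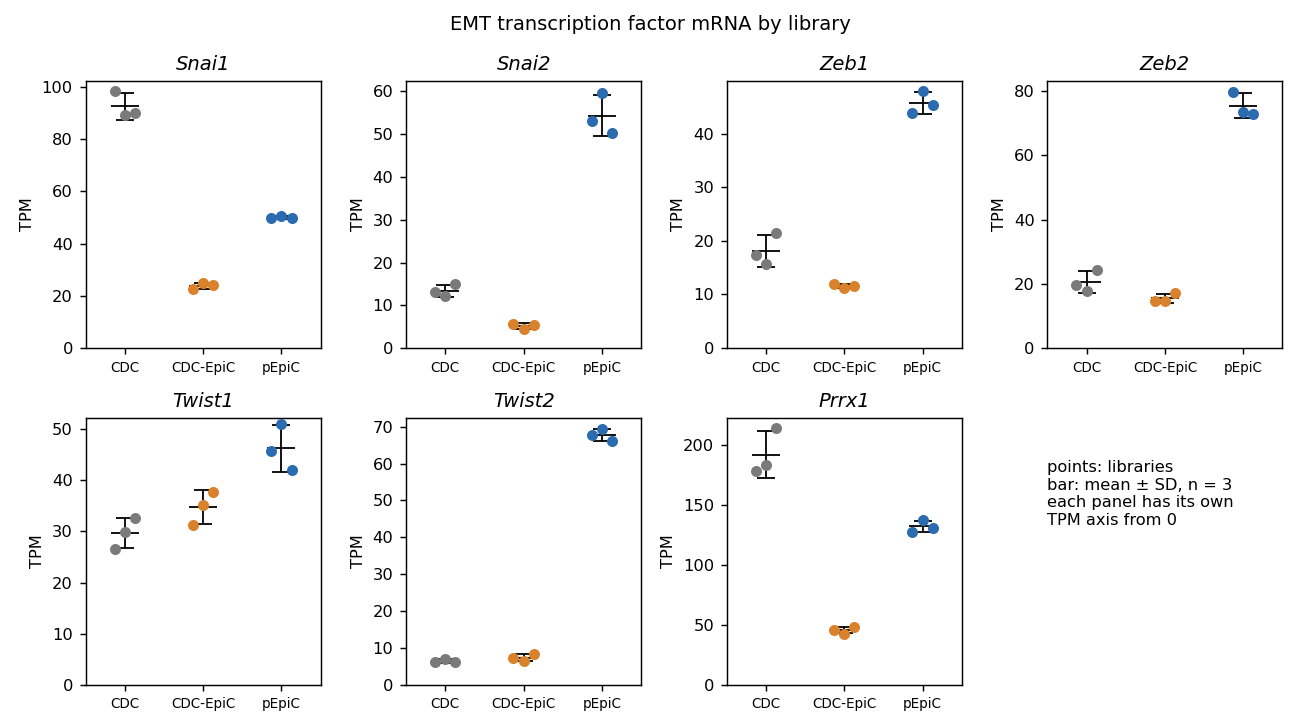
TPM (linear axis from 0, scaled per panel) of the 7 EMT transcription factors in CDC, CDC-EpiC and pEpiC. Points are libraries and bars the mean ± SD (n = 3); Snai1 and Prrx1 are highest in CDC, the other 5 in pEpiC, and the clone is lowest for all but Twist1 and Twist2.

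Both epithelial regulators were at the limit of detection. Esrp1 had 1 count in CDC-EpiC library 2 and 0 in the other 8 libraries, and Grhl2 had 1 count in CDC-EpiC library 3 and 0 in the other 8. A count of 0 allows up to 3 counts, which is 0.132 to 0.134 CPM (counts scaled to the library total) in the CDC libraries, and this limit covers counting error only. Neither gene passed the filter on low counts, so neither was tested. Their paralogs were detected. Esrp2, also an epithelial splicing regulator, had 294 to 319 counts in CDC, 232 to 244 in CDC-EpiC and 68 to 82 in pEpiC. Grhl1, a second grainyhead-like factor that was named after its values were seen, had 11 to 13 counts in CDC, 45 to 63 in CDC-EpiC and 3 to 5 in pEpiC. The clone therefore held no more than 1 count per library of Esrp1 or Grhl2 while it held Esrp2 and the highest counts of Grhl1.

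Within CDC the order of levels was Prrx1 (192 ± 19.5 TPM, SD, n = 3), Snai1 (92.5 ± 5.11), Twist1 (29.7 ± 3.01), Zeb2 (20.5 ± 3.45), Zeb1 (18.2 ± 3.00), Snai2 (13.4 ± 1.36) and Twist2 (6.44 ± 0.442). Among neighbours in that order, Zeb2 and Zeb1 overlapped across libraries. In CDC-EpiC the order was Prrx1 (45.6 ± 2.71 TPM), Twist1 (34.8 ± 3.29), Snai1 (23.9 ± 1.18), Zeb2 (15.5 ± 1.33), Zeb1 (11.6 ± 0.316), Twist2 (7.34 ± 1.02) and Snai2 (5.17 ± 0.684), and no neighbours overlapped. In pEpiC the order was Prrx1 (132 ± 4.82 TPM), Zeb2 (75.4 ± 3.88), Twist2 (67.7 ± 1.52), Snai2 (54.3 ± 4.83), Snai1 (50.02 ± 0.488), Twist1 (46.2 ± 4.54) and Zeb1 (45.7 ± 2.06). Among the last 4, neighbours overlapped and could not be ranked, but Zeb1 (43.89 to 47.96 TPM) lay below Snai1 (49.67 to 50.58) and Snai2 (50.28 to 59.66).

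Added together, the 7 factors made up 373 ± 26.8 TPM in CDC, 144 ± 7.51 TPM in CDC-EpiC and 472 ± 16.2 TPM in pEpiC (SD, n = 3). The order of CDC and pEpiC depended on the scale, since the sums of CPM, which is not scaled to length, were 794 ± 44.6 in CDC, 270 ± 7.29 in CDC-EpiC and 722 ± 15.6 in pEpiC, with the clone lowest on both. The make-up differed as well as the amount. Prrx1 was 51.4% ± 1.74 of the sum in CDC, 31.7% ± 1.18 in CDC-EpiC and 28.03% ± 0.668 in pEpiC. Twist1 was 7.96% ± 0.528 of the sum in CDC and 9.79% ± 0.626 in pEpiC, but 24.2% ± 1.52 in the clone, where its own level was kept and most of the others were low. Twist2 was 1.74% ± 0.213, 5.09% ± 0.471 and 14.4% ± 0.184 in CDC, CDC-EpiC and pEpiC. The CDC sum was thus mostly Prrx1 and Snai1, and the pEpiC sum was spread over all 7.

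**Figure D2:**
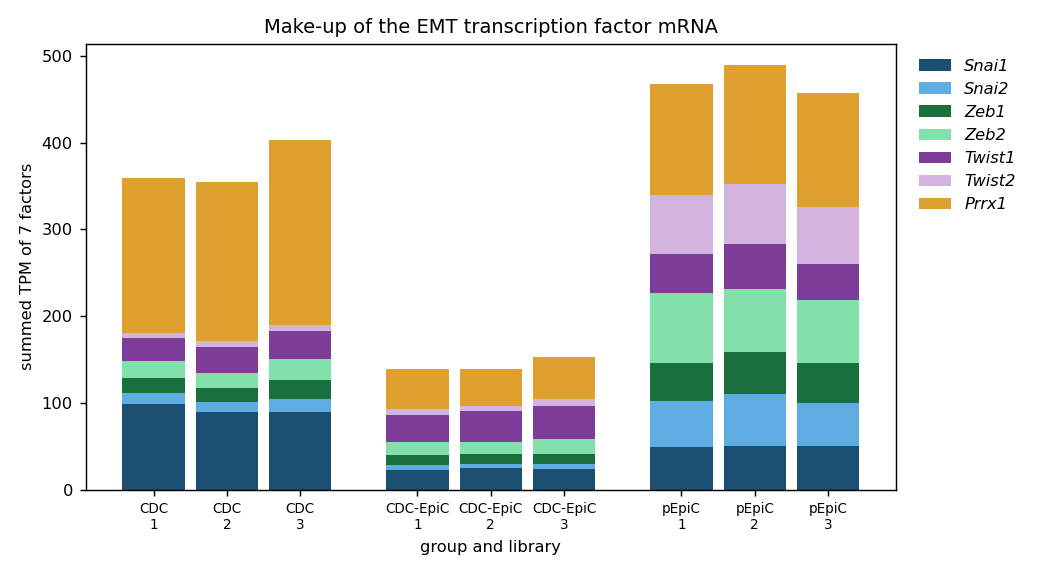
Summed TPM of the 7 factors in each of the 9 libraries (linear axis from 0), split by gene. The CDC-EpiC bars, at a mean of 144 TPM, are the lowest, and Prrx1 is the widest band in every bar.

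The first comparison asks how primary epicardial cells differ from CDC. In pEpiC vs CDC, Twist2 rose 7.40-fold, Snai2 2.86-fold, Zeb2 2.73-fold and Zeb1 1.78-fold, whereas Snai1 was 2.62-fold and Prrx1 2.08-fold lower in pEpiC. The log2 change was 2.89 (SE 0.0878, adjusted p 2.19e-09) for Twist2, 1.52 (SE 0.0784, adjusted p 6.61e-08) for Snai2 and 1.45 (SE 0.0914, adjusted p 2.54e-07) for Zeb2 in edgeR's quasi-likelihood test. Zeb1 changed by 0.84 (SE 0.0813, adjusted p 5.65e-06), Snai1 by -1.39 (SE 0.0686, adjusted p 4.79e-08) and Prrx1 by -1.06 (SE 0.0651, adjusted p 2.13e-07). Twist1 did not pass, at 0.14 (SE 0.0849, adjusted p 0.162). Of the 7 factors 6 passed an adjusted p of 0.05, against 78.3% of the 13526 genes tested, so the number that passed is close to the background. They split into 4 higher, where 39.8% of all genes tested were higher, and 2 lower, where 38.5% were lower.

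The second comparison asks what differs between the clone obtained under SB-431542 and the CDC it came from. In CDC-EpiC vs CDC, Prrx1 was 4.45-fold, Snai1 4.10-fold, Snai2 2.74-fold, Zeb1 1.66-fold and Zeb2 1.37-fold lower in the clone. The log2 change was -2.15 (SE 0.0824, adjusted p 5.29e-12) for Prrx1, -2.04 (SE 0.0846, adjusted p 1.38e-11) for Snai1 and -1.45 (SE 0.117, adjusted p 3.07e-08) for Snai2. Those of Zeb1 and Zeb2 were smaller, at -0.73 (SE 0.0893, adjusted p 3.17e-06) and -0.45 (SE 0.0910, adjusted p 0.000407). The Twist genes did not pass, with 0.15 (SE 0.0893, adjusted p 0.149) for Twist1 and 0.11 (SE 0.149, adjusted p 0.546) for Twist2. Thus 5 of the 7 passed, against 68.8% of the 12976 genes tested. All 5 were lower, where 34.6% of genes tested were lower, and none was higher in edgeR (0 also at an unadjusted p of 0.05, and 0 in DESeq2), where 34.2% of genes were higher. Tested against a change of 1.5-fold, 3 of the 7 passed (Prrx1, Snai1 and Snai2), against 28.2% of all genes tested, and Zeb1 and Zeb2 did not (adjusted p 0.0599 and 1).

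The third comparison sets the clone beside primary epicardial cells. In CDC-EpiC vs pEpiC, Snai2 was 8.05-fold, Twist2 7.08-fold, Zeb2 3.85-fold, Zeb1 3.05-fold, Prrx1 2.2-fold and Snai1 1.61-fold lower in the clone. The log2 change was -3.01 (SE 0.0984, adjusted p 2.17e-09) for Snai2, -2.82 (SE 0.0858, adjusted p 1.34e-09) for Twist2, -1.94 (SE 0.0669, adjusted p 2.96e-09) for Zeb2 and -1.61 (SE 0.0491, adjusted p 1.38e-09) for Zeb1. It was -1.13 (SE 0.0490, adjusted p 1.38e-08) for Prrx1 and -0.69 (SE 0.0620, adjusted p 3.07e-06) for Snai1. Twist1 differed by -0.03 (SE 0.0824, adjusted p 0.750). Of the 7, 6 passed, against 81.9% of the 13547 genes tested. All 6 were lower, where 41.5% of genes tested were lower, and none was higher in edgeR (0 also at an unadjusted p of 0.05, and 0 in DESeq2), where 40.3% of genes were higher. The 3 comparisons share libraries in pairs and are not independent of each other.

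**Figure D3:**
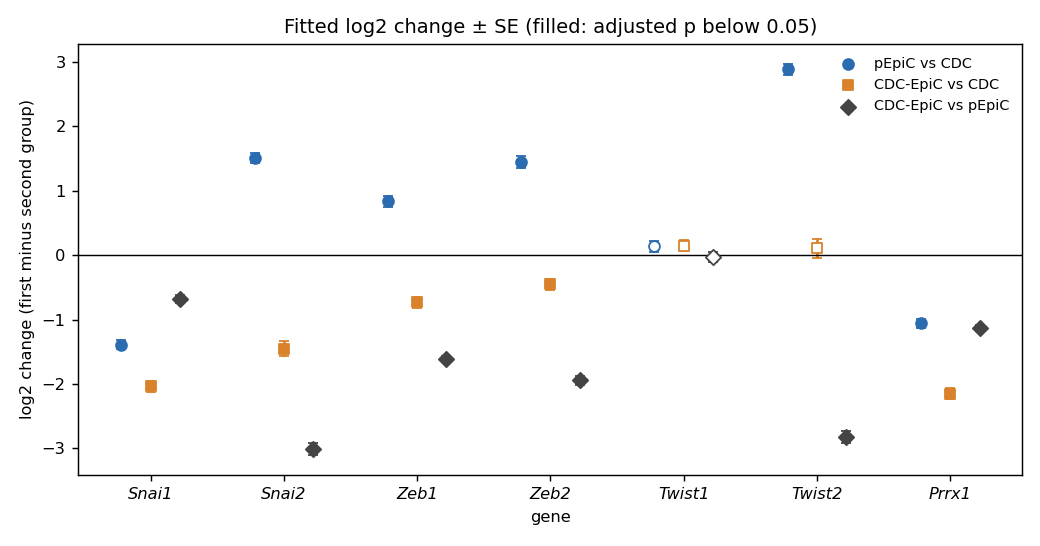
Fitted log2 change ± SE of the 7 factors for the 3 comparisons, first group minus second (3 libraries per group). Filled symbols have an adjusted p below 0.05; all filled symbols of both CDC-EpiC comparisons lie below 0, from -0.45 to -3.01, and all 3 Twist1 symbols are open.

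The size of the differences that involve pEpiC depended on transcript length. Between pEpiC and CDC the log2 change rose by 0.424 for each doubling of length over 10700 genes, and between CDC-EpiC and pEpiC it fell by 0.411, while between CDC-EpiC and CDC it rose by 0.0133. The lengths implied by counts and FPKM were 1616 bases for Snai1, 2016 for Snai2, 1625 for Twist1 and 1324 for Twist2, but 4888 for Prrx1, 5491 for Zeb1 and 6536 for Zeb2. With the length trend taken out by an offset, the pEpiC vs CDC log2 change was 0.33 for Zeb1 (adjusted p 0.000873), 0.86 for Zeb2 (adjusted p 2.51e-06) and -1.52 for Prrx1 (adjusted p 4.62e-09). For the short genes Snai1, Snai2 and Twist2 it was -1.26, 1.52 and 3.16. The directions of these 6 genes were kept. In CDC-EpiC vs pEpiC the offset brought the log2 change to -1.23 for Zeb2, -0.98 for Zeb1 and -0.56 for Prrx1, each still past the threshold, while Snai1, Snai2 and Twist2 were at -0.72, -2.92 and -2.99.

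On log2(TPM + 1), limma gave a pEpiC vs CDC change of -0.87 for Snai1, -0.53 for Prrx1, 1.30 for Zeb1 and 1.84 for Zeb2, again in the same directions. The TPM scale moved the median of all genes by 0.41 in pEpiC vs CDC and by -0.33 in CDC-EpiC vs pEpiC, where the count scale had medians of 0.02 and -0.02. Of the genes past the threshold in pEpiC vs CDC, 50.8% were higher on the count scale, 74.5% on the TPM scale and 39.9% with the length offset. For CDC-EpiC vs pEpiC the same shares were 49.3%, 32.9% and 61.5%. Twist1 was the factor whose call turned on the scale. In pEpiC vs CDC its log2 change was 0.62 on TPM (adjusted p 0.000208), 0.27 with the length offset (adjusted p 0.0165) and 0.25 with library size alone (adjusted p 0.0272). In CDC-EpiC vs pEpiC it was -0.40 on TPM (adjusted p 0.00219), and the sign of the count-based change turned when pEpiC library 2 or CDC-EpiC library 1 was left out (0.028 and 0.042).

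Ratios of paralogs within a library do not depend on how libraries are scaled. The log2 ratio of Snai2 to Snai1 was -2.79 ± 0.172 in CDC, -2.21 ± 0.261 in CDC-EpiC and 0.12 ± 0.114 in pEpiC (SD, n = 3). Snai1 thus exceeded Snai2 in both CDC and the clone, and the pair stood at near-equal TPM in pEpiC, where the ratio was 1.07, 1.18 and 1.009 in the 3 libraries. The log2 ratio of Twist2 to Twist1 was -2.202 ± 0.168 in CDC, -2.25 ± 0.184 in CDC-EpiC and 0.56 ± 0.109 in pEpiC, so the leading Twist gene was Twist1 in CDC and the clone and Twist2 in pEpiC. Zeb2 exceeded Zeb1 in all 9 libraries, with log2 ratios of 0.17 ± 0.00469, 0.42 ± 0.128 and 0.72 ± 0.127 in CDC, CDC-EpiC and pEpiC.

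The groups did not overlap in 8 of the 9 pairwise tests of these ratios. Each of those 8 had an exact two-sided permutation p of 0.1, the smallest that 3 libraries against 3 allow, and an adjusted p of 0.1125 over the 9 tests, so the design could not reach 0.05. The other was Twist2 to Twist1 between CDC-EpiC and CDC, where the groups overlapped (exact permutation p 0.5). For Zeb2 to Zeb1 the pEpiC minus CDC difference was 0.55 and fell to 0.48 without pEpiC library 1.

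**Figure D4:**
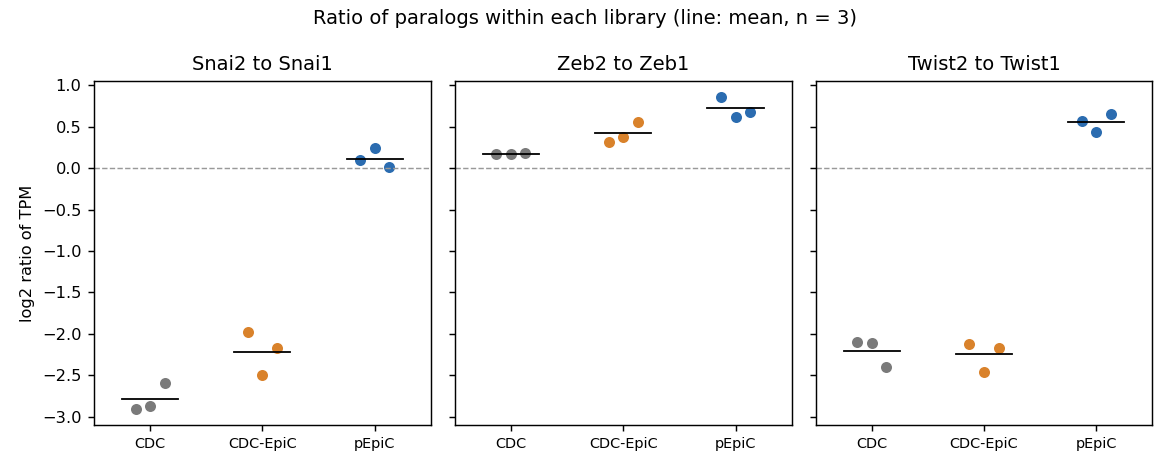
Log2 ratio of TPM of Snai2 to Snai1, Zeb2 to Zeb1 and Twist2 to Twist1 in each library; the dashed line marks equal TPM and black lines are group means (n = 3). The Snail and Twist ratios lie above 0 only in pEpiC, and the Zeb ratio is above 0 in all 9 libraries.

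Each factor was then compared with all genes over the 9 libraries, to name the genes whose pattern was most like it. The measure was Pearson's r of log2(CPM + 1) over 10693 genes. It is a description with no p, since the 9 points are 3 groups of 3 libraries and r mostly follows the order of the group levels. For Snai1 the 3 nearest genes were Selenow, Ehbp1l1 and Il6 (r 0.999, 0.997 and 0.997). Il6, an inflammatory cytokine, was at 57.2 CPM in CDC, 0.580 in CDC-EpiC and 4.14 in pEpiC. For Prrx1 they were F2r, Cd44 and Bmper (r 0.999, 0.997 and 0.997). Cd44, a hyaluronan receptor of mesenchymal cells, was at 164, 27.8 and 66.9 CPM in the same order.

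Snai2 lay nearest to Gpm6b, Pi15 and Epha7 (r 0.999, 0.999 and 0.998), and Twist2 to Naalad2, Trim66 and Abca8a (r 0.999, 0.998 and 0.998). Zeb1 lay nearest to Ccdc25, Atp8b1 and Twf1 (r 0.9998, 0.998 and 0.998), and Zeb2 to Acbd5, Mpdz and Ank2 (r 0.998, 0.997 and 0.997). Twist1 had no close match, and its nearest genes were Zfp747, Zxdb and Phf13 (r 0.875, 0.862 and 0.860). An r above 0.95 was reached by 274 genes for Snai1, 296 for Prrx1, 776 for Twist2, 878 for Snai2, 934 for Zeb1, 997 for Zeb2 and 0 for Twist1.

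Other transcription factors linked to EMT (18 genes) mostly fell in the clone. For this and later lists, the shares of all genes tested were 39.8% higher and 38.5% lower in pEpiC vs CDC. They were 34.2% and 34.6% in CDC-EpiC vs CDC, and 40.3% and 41.5% in CDC-EpiC vs pEpiC. In CDC-EpiC vs CDC, 12 of 16 tested were lower and 4 higher (Lef1, Sox4, Sox9 and Zfp703), with a median log2 change of -1.01, where the median of all genes was 0.00267. Hmga2, a chromatin factor that raises Snail and Twist transcription, fell by 3.51 on the log2 scale (SE 0.0976, adjusted p 1.76e-13). Foxc2, a forkhead factor, fell by 3.70 (SE 0.186, adjusted p 1.26e-10). Lef1, a mediator of Wnt signalling, rose from 0.228 ± 0.00234 to 7.40 ± 0.471 CPM. With 5 counts in each CDC library, Lef1 met the filter through the clone alone, so a call could only be higher. Sox4 rose by 1.48 (SE 0.0917, adjusted p 1.47e-09). Snai3, the third Snail gene, was below the filter and was named after its values were seen. It had 0, 1 and 3 counts in CDC, 15, 14 and 8 in CDC-EpiC and 1, 0 and 0 in pEpiC.

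In CDC-EpiC vs pEpiC the same list had 10 lower and 4 higher (Prrx2, Foxf1, Lef1 and Fosl1) of 17 tested, with a median log2 change of -1.13. Foxc2 and Gsc, a homeobox factor, were lower by -4.51 (SE 0.151, adjusted p 2.51e-09) and -3.83 (SE 0.152, adjusted p 7.95e-09). Prrx2, the paralog of Prrx1, was higher in the clone, by 1.73 (SE 0.143, adjusted p 1.61e-06). In pEpiC vs CDC 9 were higher and 6 lower of 16 tested with a median of 0.33, which became 6 higher and 8 lower with a median of -0.09 under the length offset. Sox9 rose by 2.45 (SE 0.0722, adjusted p 1.83e-09) and Gsc by 2.32 (SE 0.156, adjusted p 4.09e-07). Fosl1, an AP-1 subunit, fell by 4.09 (SE 0.120, adjusted p 1.75e-09) and Prrx2 by 2.06 (SE 0.160, adjusted p 1.10e-06), so Prrx2 was lower in pEpiC as Prrx1 was.

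Among the partners and inhibitors of Twist, all 8 tested changed between the clone and CDC, against 68.8% of all genes tested. Higher were 5 (Id1, Id2, Id3, Tcf3 and Tcf12) and lower 3 (Id4, Hand2 and Tcf4), at a median log2 change of 0.46. Tested against a change of 1.5-fold, 3 passed as higher and 3 as lower. Id1, an inhibitor of bHLH factors, rose from 88.2 ± 12.5 to 245 ± 11.5 CPM (log2 change 1.47, SE 0.0968, adjusted p 2.94e-09). Id2 rose from 44.6 ± 1.75 to 90.1 ± 5.14 CPM (adjusted p 1.42e-08). Id4 and Hand2, a cardiac bHLH factor, fell by 1.88 (SE 0.187, adjusted p 3.58e-07) and 1.22 (SE 0.0859, adjusted p 6.49e-09). The clone thus held Twist1 at a level near that of CDC together with more Id1 and Id2.

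Between pEpiC and CDC 3 of the 8 were higher (Tcf4, Tcf12 and Id4) and 4 lower (Id1, Id3, Hand2 and Tcf3), with a median of -0.11. Tcf4, an E protein that pairs with Twist, rose from 39.8 ± 7.67 to 143 ± 6.80 CPM (log2 change 1.80, SE 0.112, adjusted p 2.25e-07), and Id4 rose by 1.43 (SE 0.103, adjusted p 6.19e-07). Id1 and Id3 fell by 1.93 (SE 0.112, adjusted p 1.42e-07) and 1.12 (SE 0.0818, adjusted p 7.32e-07). Between CDC-EpiC and pEpiC 4 were higher and 4 lower (median 0.32). There Id1 and Id3 were higher by 3.36 (SE 0.0712, adjusted p 1.36e-10) and 1.74 (SE 0.0580, adjusted p 2.42e-09), while Tcf4 differed by -3.02 (SE 0.0588, adjusted p 8.43e-11) and Id4 by -3.35 (SE 0.157, adjusted p 2.42e-08).

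The genes that Snail and Zeb factors are known to repress were read next, with E-box sequences in their promoters shown because this is where those repressors bind. The motif searched was CACCTG or CAGGTG, which are reverse complements, so either spelling is a match on both strands. The windows are RefSeq promoters of GRCm38.p6, the assembly known as mm10, each 300 bases long with 250 before the annotated start and 50 from it on. Of 32851 windows 20.2% held the motif, and 22.6% of 27025 genes had it in at least 1 window. Some epithelial genes on the list, Cdh1 and Krt19 among them, had no window and could not be looked up. Of the list, 18 had a window and 16 of these held the motif. The list was drawn up from textbook targets of these repressors, so this share is not independent evidence. Among mesenchymal genes of EMT, 2 of 14 with a window held it. These matches are a description of letters in the windows and not of bound sites. Of the factors, Snai1, Zeb2, Twist1, Twist2 and Prrx1 were looked up, and only the Snai1 window held a match. Snai1 can repress its own gene, and its window is shown with the first windows of 3 target genes that had several matches, with each match in capitals.
Snai1, chr2:167537945-167538244, plus strand: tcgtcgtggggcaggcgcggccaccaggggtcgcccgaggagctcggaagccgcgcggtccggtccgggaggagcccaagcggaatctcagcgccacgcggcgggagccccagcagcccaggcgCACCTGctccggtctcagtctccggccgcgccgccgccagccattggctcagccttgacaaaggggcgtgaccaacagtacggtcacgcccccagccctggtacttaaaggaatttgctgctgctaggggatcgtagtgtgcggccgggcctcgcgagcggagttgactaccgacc
Crb3, chr17:57061951-57062250, plus strand: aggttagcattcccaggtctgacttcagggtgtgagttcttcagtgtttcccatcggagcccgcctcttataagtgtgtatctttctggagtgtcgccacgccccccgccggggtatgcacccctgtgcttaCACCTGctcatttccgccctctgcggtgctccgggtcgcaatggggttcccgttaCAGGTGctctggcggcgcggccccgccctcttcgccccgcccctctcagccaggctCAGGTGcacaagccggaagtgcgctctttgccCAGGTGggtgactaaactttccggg
Epcam, chr17:87635729-87636028, plus strand: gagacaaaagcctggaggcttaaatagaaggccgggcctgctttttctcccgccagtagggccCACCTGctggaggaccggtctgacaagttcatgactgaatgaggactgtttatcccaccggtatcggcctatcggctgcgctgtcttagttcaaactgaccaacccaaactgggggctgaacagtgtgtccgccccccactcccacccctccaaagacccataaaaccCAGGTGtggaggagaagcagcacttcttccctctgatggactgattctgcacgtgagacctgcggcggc
Lsr, chr7:30973420-30973719, minus strand: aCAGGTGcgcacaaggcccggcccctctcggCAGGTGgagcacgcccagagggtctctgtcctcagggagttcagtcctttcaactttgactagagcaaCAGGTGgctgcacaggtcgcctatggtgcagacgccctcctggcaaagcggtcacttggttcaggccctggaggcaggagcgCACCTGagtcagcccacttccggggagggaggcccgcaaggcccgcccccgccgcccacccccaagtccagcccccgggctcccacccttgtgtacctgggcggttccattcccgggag

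The Snai1 match begins 126 bases before the start. The Crb3 matches begin 118, 63 and 7 bases before the start and at base 26 from it, and 4 or more matches were found in 0.0548% of all windows. Those of Epcam begin 187 and 19 bases before the start, where 2 or more were found in 2.88% of windows, and 3 of those of Lsr begin 219, 151 and 69 bases before it, with the fourth near the left edge of its window. The Crb3, Epcam and Lsr windows were picked for their several matches, so these shares of all windows are not independent evidence. The mRNA of these 3 genes, named here for their windows, did not follow 1 pattern. Crb3, a Crumbs polarity protein, had 2, 1 and 3 counts in CDC, 26, 29 and 33 in CDC-EpiC and 7, 4 and 2 in pEpiC. It met the filter through CDC-EpiC alone, so a call for it in either comparison of the clone could only be higher. Epcam, an epithelial adhesion molecule, had at most 2 counts in any library. Lsr, a tricellular junction protein, had 65 to 82 counts in CDC, 130 to 145 in CDC-EpiC and 99 to 136 in pEpiC. It was thus transcribed in all 3 kinds of cell, and binding at its 4 matches was not tested.

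Of the 30 epithelial genes listed, 28 were in the table and 12 to 16 were tested. In CDC-EpiC vs CDC 8 of 12 were higher and 3 lower (Krt19, Mal2 and Muc1), with a median log2 change of 0.80. Of all genes tested, 34.2% were higher and 34.6% lower. Cgn, a tight junction protein, rose from 6.83 ± 1.17 to 39.7 ± 1.97 CPM (log2 change 2.53, SE 0.109, adjusted p 2.11e-11). Spint1, a protease inhibitor of epithelia, rose from 0.212 ± 0.0932 to 7.27 ± 0.830 CPM. With at most 7 counts in any CDC library, Spint1 met the filter through the clone alone, as Crb3 did, and could only be called higher. Mal2 met it through CDC alone and could only be called lower. The promoter windows of Cgn and Spint1 held no match to the motif. Krt19, a keratin, fell by 0.48 (SE 0.127, adjusted p 0.00332). A larger fall was that of Mal2, named after its values were seen, from 67, 67 and 81 counts to 8, 10 and 3. The remaining 18 were not tested, 16 of them for low counts in both groups. These included Krt8, an epithelial keratin named after its values were seen, with at most 9 counts in either group and 59 to 66 in pEpiC.

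Between pEpiC and CDC 8 of 16 tested epithelial genes were higher and 6 lower (median 0.31), so the list did not move one way. Krt19 fell from 35.4 ± 6.40 to 1.22 ± 0.191 CPM (log2 change -4.90, SE 0.181, adjusted p 7.06e-09), and the polarity gene Llgl2 fell by 1.44 (SE 0.112, adjusted p 1.08e-06). Lsr rose by 0.57 (SE 0.164, adjusted p 0.00897) and Pkp2, a desmosomal plaque protein, by 0.41 (SE 0.130, adjusted p 0.0148). Larger rises were found among genes of lower level, named after their values were seen. The keratins Krt18 and Krt8 had 34 to 55 and 59 to 66 counts in pEpiC, and Spint1 had 48 to 66. The claudin Cldn3 had 37 to 40, St14 23 to 25 and Pkp3 18 to 22. Each had at most 9 counts in any CDC library and met the filter through pEpiC alone, so a call could only be higher. With Lsr and Pkp2, these genes made up the 8 higher. Cdh1 and Mal2 met the filter through CDC alone and could only be called lower. Against pEpiC the clone had 9 of 16 higher and 6 lower (median 0.93). Here Cdh1 and Crb3 met the filter through the clone alone, and Krt8, Krt18, Cldn3, St14 and Pkp3 through pEpiC alone. Krt19 was higher by 4.37 (SE 0.164, adjusted p 5.46e-09). Cdh1, the E-cadherin gene and a direct Snail and Zeb target, had 108 to 156 counts in CDC-EpiC and 1 to 3 in pEpiC, while CDC had 68 to 104.

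Other epithelial identity factors (17 genes) were mostly silent, as Esrp1 and Grhl2 were: 6 of the 16 in the table were tested. In CDC-EpiC vs CDC 4 rose (Grhl1, Klf5, Rbm47 and Tfap2a) and 2 fell, with a median of 0.47. Klf5 rose by 0.45 (SE 0.131, adjusted p 0.00695), whereas Klf4 fell by 0.52 (SE 0.0834, adjusted p 4.82e-05) and Esrp2 by 0.41 (SE 0.0946, adjusted p 0.00125). Grhl1 rose by 2.06 (SE 0.248, adjusted p 2.73e-06). Between pEpiC and CDC 2 rose (Klf4 and Rbm47) and 3 fell (Esrp2, Klf5 and Grhl1), at a median of -0.18, with Klf4 up by 0.56 (SE 0.0790, adjusted p 8.90e-05), Esrp2 at -2.13 (SE 0.113, adjusted p 7.87e-08) and Klf5 at -0.80 (SE 0.145, adjusted p 0.000488). The clone had 4 higher (Esrp2, Grhl1, Klf5 and Tfap2a) and 1 lower than pEpiC (median 1.38), with Esrp2 higher by 1.68 (SE 0.115, adjusted p 3.87e-07), Klf5 by 1.21 (SE 0.117, adjusted p 5.07e-06) and Klf4 at -1.13 (SE 0.0923, adjusted p 1.47e-06). Grhl1, at 3 to 5 counts in pEpiC, met the filter there through the clone alone, and in pEpiC vs CDC through CDC alone. Tfap2a, at 3 to 12 counts in CDC and 24 to 38 in the clone, met it in CDC-EpiC vs CDC only with its clone counts. The counts and medians of this list rest partly on such entries. Klf4 and Klf5 are zinc-finger factors of epithelia, and Klf4 is also used by other cells.

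Mesenchymal genes of EMT (24 listed, 23 tested) were mostly lower in the clone than in either other kind of cell. In CDC-EpiC vs CDC 16 were lower and 1 higher (median -0.82), where 34.6% and 34.2% of all genes tested were. Col3a1, a fibrillar collagen, fell by 2.64 (SE 0.152, adjusted p 6.21e-10). The only gene that rose was Pdgfra, by 1.07 (SE 0.0996, adjusted p 1.71e-07). Against pEpiC 20 were lower and 3 higher, which were Vim, S100a4 and Tnc (median -2.0, or -1.19 with the length offset). Of all genes tested, 41.5% were lower there and 40.3% higher. Mmp2, a matrix protease, was at 2.19 ± 0.164 CPM in the clone and 1046 ± 43.8 in pEpiC (log2 change -8.90, SE 0.0866, adjusted p 1.01e-11). S100a4 and Tnc were higher in the clone, by 1.98 (SE 0.0998, adjusted p 4.01e-08) and 1.27 (SE 0.0897, adjusted p 4.73e-07).

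Set beside CDC, pEpiC had 15 of the 23 mesenchymal genes higher and 7 lower (median 1.05, or 0.51 with the length offset). The shares of all genes tested were 39.8% higher and 38.5% lower. Postn and Mmp2, products of activated fibroblasts, rose by 10.0 (SE 0.200, adjusted p 2.03e-10) and 6.30 (SE 0.0983, adjusted p 5.90e-11). S100a4 fell by 2.67 (SE 0.158, adjusted p 1.67e-07). Both directions thus appeared within the list here, as they did for the factors themselves, of which 4 were higher and 2 lower.

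**Figure D5:**
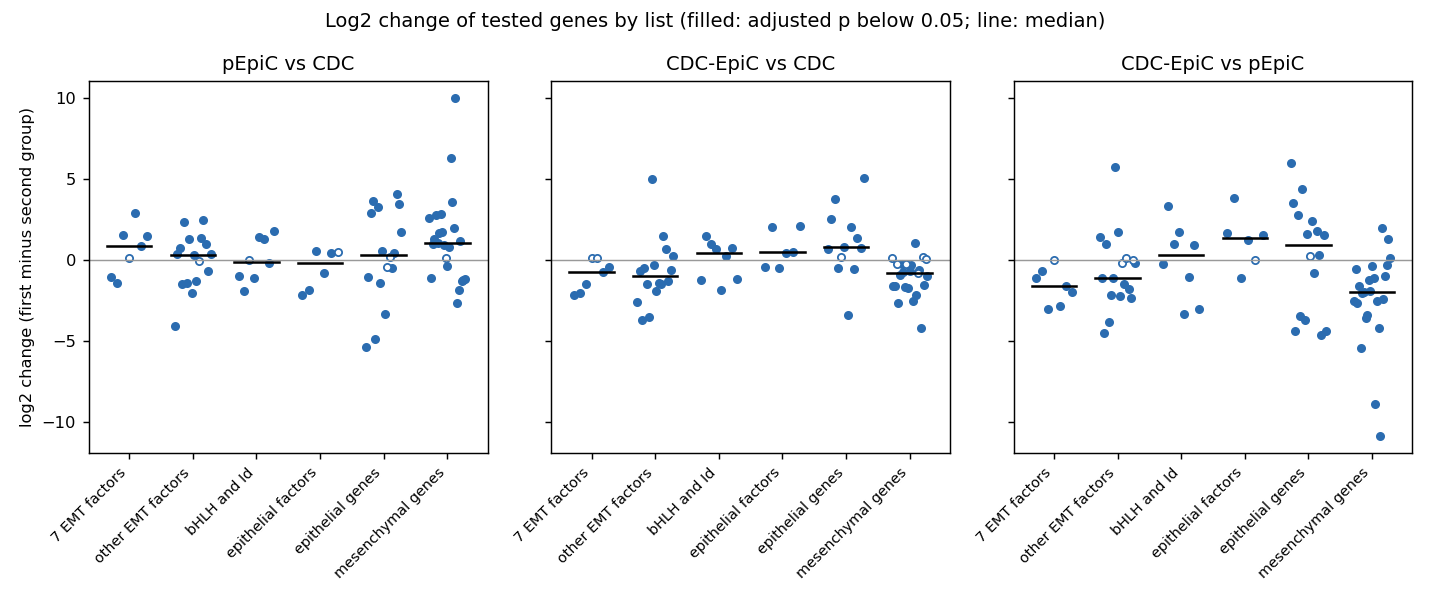
Fitted log2 change, first group minus second, of each tested gene of 6 lists in the 3 comparisons (3 libraries per group). Filled points have an adjusted p below 0.05 and lines are list medians, which for mesenchymal genes are 1.05, -0.82 and -2.0 from left to right.

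By RefSeq of GRCm38.p6 the factors are dispersed. Twist2 lies on chromosome 1 from 91801461 to 91848034 and Prrx1 on the same chromosome from 163245119 to 163315145. Zeb2 spans 44983512 to 45117442 and Snai1 167538195 to 167542814, both on chromosome 2. Twist1 lies on chromosome 12 (33957671 to 33959831) and Snai2 on chromosome 16 (14705852 to 14709395). Esrp1 is on chromosome 4 (11331933 to 11386783) and Grhl2 on chromosome 15 (37232821 to 37363569). Noncoding RefSeq genes overlap Zeb2 (Zeb2os among them), Twist2, Prrx1 and Grhl2 and were not analysed here. Whether strand was used in counting is not given in the sources used here, so reads of these overlapping genes may be included. Expected counts of Snai1, Twist1 and Twist2 were whole in all 9 libraries, while those of Snai2 and Prrx1 were not whole in any, as happens when reads are divided among features.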

How the data were processed

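The authors deposited, per library and gene, RSEM expected counts, with FPKM and TPM from the same estimate. The submitters' processing notes name HISAT2 2.0.4, Bowtie2 2.2.5, RSEM 1.2.12, DESeq2 1.4.5 and build mm10. Annotation and strand are not given in the sources used here. The 9 deposited columns of group means equalled the library means within 0.01 and were not used. Expected counts were rounded and, for each pair of groups, the 6 libraries were fitted in edgeR 4.0.16 (filterByExpr with counts of 10 and 15, TMM, glmQLFit, glmQLFTest). P-values were Benjamini-Hochberg adjusted over all genes tested, with a threshold of 0.05. CPM values are TMM-normalized. The procedure was tested on simulated data. Paralog ratios were tested by exact permutation. Alternatives were DESeq2 1.42.0, other normalizations and filters, limma 3.58.1 on TPM and FPKM, a length offset, a 1.5-fold test, a replicate block and leaving out each library. Members and lists were chosen with earlier results of these data known. Named genes are the 9 members, the 2 largest rises and falls per list and comparison (groups not overlapping, at least 5 CPM in the higher group), and the 3 genes nearest each factor. Some listed genes, Dub3, Inadl and Ovol2 among them, were not analysed here, and items withheld are not reported here. Each library was counted as 1 replicate. Libraries of a kind differed by more than sampling noise (chi-square over degrees of freedom 4.72 to 21.8), which does not show whether they are separate biological samples.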

Additional observations from a re-analysis of the deposited data

How the results depend on the processing

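Over 378 alternative values of the 7 factors, 367 kept direction and side of the threshold. The exceptions were Twist1, Zeb1 and Zeb2. Twist1 passed in pEpiC vs CDC with library size alone (0.25), TPM + 1 (0.62), TPM + 0.1 (0.64), FPKM + 1 (0.24) and the length offset (0.27), and in CDC-EpiC vs pEpiC with TPM + 1 (-0.40) and TPM + 0.1 (-0.41). There its leave-one-out values ran from -0.093 to 0.042 and turned sign without pEpiC replicate 2 (0.028) or CDC-EpiC replicate 1 (0.042). Against 1.5-fold, 3 factors in place of 5 passed in CDC-EpiC vs CDC (Zeb1 had an adjusted p of 0.0599 and Zeb2 of 1). All-gene calls in that test were 5549 (of 10593), 3664 (of 8928) and 6578 (of 11091) in the order of the report. List calls that moved by over 1.5 times in it were co-repressors (11 to 6, 12 to 1 and 15 to 4), epithelial identity factors (5 to 2 and 6 to 2), other EMT factors (16 to 10), epithelial genes (11 to 6) and cardiomyocyte markers (2 to 1). The Twist2 to Twist1 log2 ratio between CDC-EpiC and CDC was -0.046 and ranged from -0.143 to 0.0592 when 1 library was left out, with a positive sign without CDC replicate 1, CDC replicate 2 or CDC-EpiC replicate 2. Same-numbered libraries correlated by -0.101 to 0.162 in their deviations from group means, and libraries of different number by -0.158 to 0.133. With 3 libraries per group these values cannot exclude pairing. The replicate block left 6, 5 and 6 factors called. With the block 10604, 8831 and 11096 genes were called in all. Depth limits Esrp1 and Grhl2, whose levels under 3 counts cannot be compared. The causes of the length trend and of the macrophage RNA in pEpiC library 1 were not tested.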

Other observations

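Co-repressors and turnover factors of Snail and Zeb (17 genes tested), such as chromatin modifiers and ubiquitin ligases, changed in both directions. Between pEpiC and CDC 6 were higher and 5 lower (Suv39h1, Ezh2, Hdac1, Smarca4 and Btrc), with a median log2 change of 0.05 that became -0.05 with the length offset. Suv39h1 and Ezh2, histone methyltransferases, fell by 2.06 (SE 0.101, adjusted p 4.77e-08) and 1.31 (SE 0.0898, adjusted p 4.70e-07), while Gsk3b, a kinase that marks Snai1 for degradation, rose by 1.04 (SE 0.0954, adjusted p 3.67e-06) and Fbxw7 by 0.97 (SE 0.104, adjusted p 1.11e-05). Between the clone and CDC 7 were higher and 5 lower (Ezh2, Fbxw7, Suv39h1, Ctbp2 and Hdac2), with a median of 0.04. Fbxl14, a ubiquitin ligase subunit for Snail and Twist proteins, rose by 1.03 (SE 0.0864, adjusted p 5.40e-08). Ctbp1, a co-repressor that Zeb factors recruit, rose by 0.42 (SE 0.0721, adjusted p 0.000104), while Ezh2 and Fbxw7 fell by 0.77 (SE 0.110, adjusted p 1.70e-05) and 0.60 (SE 0.127, adjusted p 0.000606). Against pEpiC the clone had 7 higher and 8 lower (median 0.06), which became 9 higher and 3 lower with the length offset, with Suv39h1 at 1.41 (SE 0.0917, adjusted p 2.57e-07), Fbxl14 at 0.66 (SE 0.0702, adjusted p 1.07e-05), Fbxw7 at -1.62 (SE 0.0759, adjusted p 2.44e-08) and Gsk3b at -1.10 (SE 0.0813, adjusted p 6.77e-07).

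Endothelial markers (11 genes) summed to 23.4 to 30.9 TPM in CDC, 14.7 to 16.4 in CDC-EpiC and 47.0 to 60.9 in pEpiC, with Flt1 the most abundant in pEpiC. Cardiomyocyte markers (10 genes) summed to 14.6 to 33.1 TPM in CDC, 16.02 to 20.3 in CDC-EpiC and 282 to 322 in pEpiC, with Tnnt2 the most abundant. The pEpiC cardiomyocyte sum was led by Tnnt2, a troponin, with 3099 to 3477 counts there against 172 to 238 in CDC, and the other 9 markers had at most 35 counts in any pEpiC library. Myh6, the alpha myosin heavy chain that defines cardiomyocytes, had 191, 190 and 0 counts in the 3 CDC libraries, at most 1 in CDC-EpiC and 1, 0 and 0 in pEpiC. Mb, or myoglobin, had 62, 54 and 2 counts in CDC and at most 2 in pEpiC. The endothelial sum in pEpiC was led by Flt1, with 1565 to 1924 counts, and Tek, with 377 to 434, whereas the defining markers Pecam1 and Cdh5 had 1 to 17 and 3 to 22 counts. These genes other than Tnnt2 and Flt1 were named after their values were seen.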
